A study of Mus musculus with 19 samples.

Results

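The nuclear-encoded genes of the mitochondrial respiratory chain and of ATP synthase were examined in cultured mouse neural progenitor cells with and without Mettl14. Members were the protein-coding genes of the GENCODE M21 annotation whose symbol starts with Nduf, Uqcr, Cox4 to Cox8 or Atp5, or is Sdha, Sdhb, Sdhc or Sdhd. The rule uses names and no measured value, and it gave 94 genes with 93 symbols and 431 annotated transcripts among 22028 protein-coding genes. Atp5o is present under a second identifier that was near 0 in the ladder libraries, and that identifier was left out of sums. The set holds 44 genes of complex I, 4 of complex II, 8 of complex III, 20 of complex IV and 18 of complex V.

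Complex I takes electrons from NADH and complex II takes them from succinate, complex III passes them to cytochrome c, and complex IV passes them on to oxygen. Complexes I, III and IV pump protons out of the mitochondrial matrix, and complex V, the ATP synthase, lets them flow back while it makes ATP. All but complex II also hold subunits that the mitochondrial genome encodes, and assembly factors help to build the complexes without staying in them. Neural progenitors divide in the embryonic brain and give rise to neurons and glia, and they draw on both glycolysis and this pathway.

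The KO cells came from cortices of Mettl14 conditional knockout embryos and the WT cells from Mettl14 wild-type embryos, and the labels name neither the Cre driver nor the embryonic stage. Mettl14 forms a methyltransferase with Mettl3 that writes N6-methyladenosine into mRNA. All cells were kept on Matrigel in medium with FGF2 and EGF, each at 20 ng/ml. There were 4 KO and 4 WT Ladder-seq libraries, in which mRNA is first parted by length into 7 bands that are indexed apart, with paired reads of 75 bp, and 3 standard WT libraries with single reads of 50 bp. Native RNA and direct cDNA were also read on a nanopore device, where the 2 replicates of a genotype and chemistry were pooled into 1 assembly. Nothing says that the libraries came from separate cultures, so p-values measure only the spread between these libraries, which may be technical.

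Total estimated counts were 104899560 to 118197946 in the KO ladder libraries, 103752444 to 126921887 in the WT ladder libraries and 12084507 to 13987929 in the standard libraries. Mettl14 averaged 7.95 CPM (counts scaled to a common library total after TMM) in KO and 29.0 CPM in WT ladder libraries (log2 -1.87, adjusted p = 5.37e-07), and in native long reads it was at 13.7 TPM in KO and 19.8 TPM in WT. Ddx3y, on the Y chromosome, averaged 4.39 CPM in KO and 0.0129 CPM in WT, and Xist averaged 55.9 CPM in KO and 173 CPM in WT. In the native reads Ddx3y was at 4.64 TPM in KO and 15.2 TPM in WT, and the part of sex in the results was not tested. The summed level of 9 neural progenitor markers was 6175 to 7076 CPM in KO and 8590.2 to 9097 CPM in WT. Oligodendrocyte-lineage markers summed to 86.0 to 102 CPM in KO and 221 to 313 CPM in WT, neuronal markers to 249 to 348 CPM in KO and 270.0 to 397 CPM in WT, and astrocyte markers to 630.1 to 716 CPM in KO and 544 to 884 CPM in WT. Markers of endothelium and mural cells summed to 3.52 to 3.96 CPM in KO and 1.24 to 1.49 CPM in WT, those of fibroblasts to 3.02 to 3.85 CPM in KO and 0.416 to 0.709 CPM in WT, and those of microglia to 1.59 to 2.24 CPM in KO and 0.935 to 1.3 CPM in WT, each without overlap. At adjusted p under 0.05 (edgeR quasi-likelihood test), 1 of the 9 progenitor markers rose and 2 fell. Of 8 neuronal markers 0 rose and 6 fell, and of 6 astrocyte markers 5 rose and 1 fell. Of 6 oligodendrocyte-lineage markers 1 rose and 4 fell. Among all 18687 genes tested, 26.4% rose and 27.2% fell. A sum thus need not follow most of its markers. The part of these marker differences in the results was not tested. Transcripts under 1000 bases held 22.7, 19.8, 20.1 and 26.5% of counts in KO libraries 1 to 4, and 19.2, 20.5, 23.6 and 21.8% in WT libraries 1 to 4. Among the 91 members tested, KO library 4 was the highest KO library in 76 and WT library 3 the highest WT library in 66, while KO library 2 was the lowest in 55 and WT library 1 the lowest in 42. In bulk RNA, fewer cells of a type and less RNA per cell cannot be told apart.

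With Mettl14 lost, 8 members rose and 16 fell in the ladder libraries. Assembly factors of complex I made up 4 of the 8 rises, whereas the falls held core subunits of complex I such as Ndufs1 and Ndufs8, 3 of the 4 subunits of complex II, the 2 core proteins of complex III and 2 subunits of the catalytic head of ATP synthase. Of all 18687 genes tested, 26.4% rose and 27.2% fell at the same threshold of adjusted p under 0.05 (edgeR quasi-likelihood test, Benjamini-Hochberg over all genes). The members' shares, 8.79% rising and 17.6% falling, lay below both. Their median log2 fold change of -0.028 was close to the -0.033 of all genes tested, with 39 members above 0 and 52 below. Without KO library 4 there were 6 rises and 26 falls, and without KO library 1 there were 5 rises and 10 falls.

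**Figure D1:**
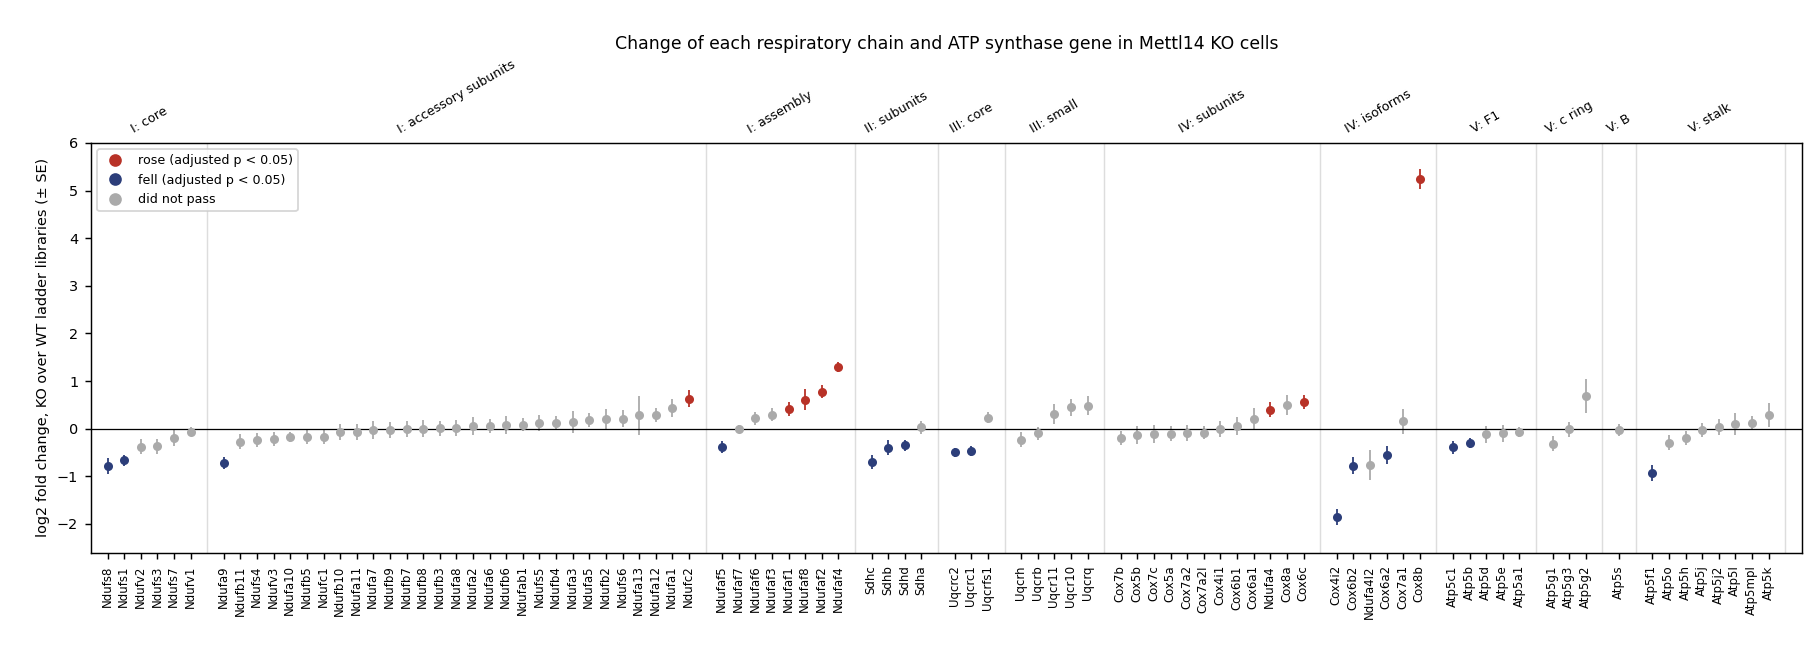
Each point is a member tested, placed by complex and role, with its log2 fold change of KO over WT ladder libraries and SE on the vertical axis (4 libraries each). The core subunits of complex I that are drawn lie below 0, most complex I assembly factors lie above it, and Cox8b stands apart at 5.25.

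The assembly factors of complex I carry the Ndufaf names and were low in level, with a median of 19.7 TPM, a level scaled for transcript length as well as depth, over the 8 genes in WT. Of the 8, 4 rose and 1 fell, with a median log2 fold change of 0.35. Ndufaf4 (chr4:24898083-24905001, plus strand, GRCm38), which works with Ndufaf3 early in the building of complex I, had 48.7, 55.7, 52.4 and 50.5 CPM in the KO libraries, against 21, 18, 22.8 and 22.1 CPM in the WT libraries. Every KO library lay above every WT library, more than 2-fold above on average (log2 1.31, SE 0.11, adjusted p = 1.38e-06). On average 63.0% of its counts in KO and 66.7% in WT were assigned to Ndufaf4-202, which is annotated as a noncoding processed transcript. In native reads that transcript was at 12.9 TPM in KO and 3.13 TPM in WT. The coding Ndufaf4-201 averaged 13.8 CPM in the KO and 6.73 CPM in the WT ladder libraries. Ndufaf2, a factor that joins at a late stage, had 60.2, 54.6, 54.5 and 78 CPM in the KO libraries, against 33.9, 33.3, 40.2 and 37.3 CPM in the WT libraries. Its groups did not overlap either (log2 0.77, SE 0.13, adjusted p = 0.000469). Ndufaf8, which in humans partners Ndufaf5, had 38.9, 34.3, 38.2 and 53.9 CPM in the KO libraries, against 16.2, 25.7, 36.5 and 29.8 CPM in the WT libraries, and WT library 3 lay within the KO range (log2 0.61, SE 0.22, adjusted p = 0.0363). Ndufaf1, needed for the membrane arm, had 18.9, 17.8, 14.2 and 11.5 CPM in the KO libraries, against 12.2, 11.9, 11.9 and 11.1 CPM in the WT libraries. KO library 4, which was highest for most members, was here the lowest of the KO libraries and within the WT range (log2 0.41, SE 0.14, adjusted p = 0.0316). Ndufaf5, a methyltransferase-like protein that in humans hydroxylates a core subunit, was the assembly factor that fell, with 28.7 ± 3.9 CPM in KO and 37.6 ± 4.35 CPM in WT (log2 -0.39, adjusted p = 0.0205). The calls for Ndufaf8, Ndufaf1 and Ndufaf5 were lost when some single libraries were left out, with adjusted p up to 0.111, 0.0973 and 0.0663. Ndufaf3, Ndufaf6 and Ndufaf7 had log2 values of 0.29, 0.22 and -0.0069 and did not pass.

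The promoters of the 2 rising factors that held a searched motif in a window free of annotated exons are shown, since the start regions of this pathway are known for sites of the factors NRF1, GABP and YY1. The letters are the 250 bases before the gene start in the RefSeq annotation of GRCm38.p6, 5′ to 3′ on the gene's strand, with the matched motif in capitals. The Ndufaf4 window holds GCATGCGC, the core of the NRF1 site, on both strands in overlapping positions, and the Ndufaf1 window holds CCGGAAG, an ETS or GABP site, which begins at position -18 from the start.
Ndufaf4, chr4:24897833-24898082, plus strand: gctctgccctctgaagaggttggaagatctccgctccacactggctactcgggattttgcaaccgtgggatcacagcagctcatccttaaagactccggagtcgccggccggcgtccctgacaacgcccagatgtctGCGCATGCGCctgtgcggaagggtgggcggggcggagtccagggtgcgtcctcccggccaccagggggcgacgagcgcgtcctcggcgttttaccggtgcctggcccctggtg
Ndufaf1, chr2:119662835-119663084, minus strand: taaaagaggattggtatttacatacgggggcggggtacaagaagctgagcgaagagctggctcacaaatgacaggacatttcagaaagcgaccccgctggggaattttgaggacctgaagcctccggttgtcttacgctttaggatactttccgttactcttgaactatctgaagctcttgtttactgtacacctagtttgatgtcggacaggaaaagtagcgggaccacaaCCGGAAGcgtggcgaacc
RefSeq windows of 300 bases, 250 before to 50 after the start, were matched for 74 of the 93 member symbols and searched on both strands. A symbol was counted once if any of its windows held the motif. GCATGCGC was present in 12 member symbols (16.2%) and in 3.05% of all 27025 symbols. CCGGAAG was present in 18 (24.3%) and in 9.93% of all symbols, and AAGATGGC, the YY1 site, in 10 (13.5%) and in 3.19% of all symbols. At least 1 of the 3 was found in 33 member symbols (44.6%) and in 14.9% of all symbols. Among the 24 called members, the 250 bases before the start held a motif in the rising Ndufaf4, Ndufaf1 and Ndufaf8 and in the falling Sdhb and Sdhd. In the falling Uqcrc1, Ndufs8, Ndufa9 and Ndufaf5 the match lay in the 50 bases after the start. A match describes letters only and is not evidence of binding.

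The nuclear-encoded core subunits of complex I together hold the flavin and the iron-sulfur clusters, and Ndufs8 and Ndufs1 were among those that fell. Ndufs8, an iron-sulfur protein of the module that reduces quinone, had 44.7, 35.7, 30.4 and 57.1 CPM in the KO libraries, against 77.8, 70.9, 71.6 and 68.8 CPM in the WT libraries (log2 -0.79, SE 0.17, adjusted p = 0.00232). Ndufs1, the large iron-sulfur subunit of the arm that takes up NADH, had 104, 118, 119 and 94.7 CPM in the KO libraries, against 149.5, 160.4, 196 and 186 CPM in the WT libraries (log2 -0.67, SE 0.12, adjusted p = 0.000787). In both the groups did not overlap, and the calls held in each of the 21 alternatives tried. Ndufv2 and Ndufs3 had log2 values of -0.38 and -0.37 and missed the threshold (adjusted p = 0.0566 and 0.0724), and they passed without KO library 4. Ndufs7 and Ndufv1, which binds NADH, had -0.19 and -0.061.

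Accessory subunits surround the core of complex I. Of the 29, 1 rose and 1 fell, with a median log2 fold change of 0.020. Ndufc2, a small subunit of the membrane arm, had 583, 509.9, 514 and 844 CPM in the KO libraries, against 338, 366, 469.9 and 409.7 CPM in the WT libraries. The KO libraries lay above the WT libraries without overlap, and KO library 4 was the highest (log2 0.63, SE 0.18, adjusted p = 0.0105). Per length it was the most abundant complex I member, at 989 ± 149 TPM in KO and 596 ± 97.7 TPM in WT (SD, n = 4 each). Ndufa9 (chr6:126821721-126849136, minus strand), which sits where the arms of the complex meet, had 120.2, 135, 119.5 and 152 CPM in the KO libraries, against 229.8, 238, 192 and 206 CPM in the WT libraries, without overlap (log2 -0.72, SE 0.12, adjusted p = 0.000359). The estimated counts assigned this fall to the transcript Ndufa9-201, which averaged 31.1 CPM in KO and 113 CPM in WT and whose intron chain no long-read assembly held. Ndufa9-203 averaged 100.5 CPM in KO and 102 CPM in WT. In native reads the Ndufa9-203 chain was lower in KO, at 162 TPM in KO and 260 TPM in WT. In cDNA it was at 13.3 TPM in KO and 15.7 TPM in WT, so the transcript that fell is uncertain. Ndufc1, second in level in WT, was at 519 ± 67.3 TPM in KO and 542 ± 45.5 TPM in WT (log2 -0.18, adjusted p = 0.339). The X-linked members Ndufa1, Ndufb11 and Cox7b had log2 values of 0.43, -0.27 and -0.19, with adjusted p of 0.0752, 0.151 and 0.29.

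Complex II, succinate dehydrogenase, is also an enzyme of the citric acid cycle, and 3 of its 4 subunits fell. Sdhc, a membrane anchor, had 87.7, 101, 81.3 and 81.8 CPM in the KO libraries, against 122, 187, 123 and 141 CPM in the WT libraries (log2 -0.70, SE 0.15, adjusted p = 0.00184). Sdhd, the other anchor, had 143, 168, 143 and 169 CPM in the KO libraries, against 209.8, 212, 182 and 189 CPM in the WT libraries (log2 -0.35, SE 0.11, adjusted p = 0.0171). Neither anchor's groups overlapped. Sdhb, the iron-sulfur subunit, had 392, 357, 311 and 526 CPM in the KO libraries, against 556, 549, 485 and 504 CPM in the WT libraries, and KO library 4 lay within the WT range (log2 -0.40, SE 0.16, adjusted p = 0.0472). The catalytic flavoprotein Sdha had 323, 379, 386 and 337 CPM in the KO libraries, against 343, 283, 396 and 376 CPM in the WT libraries, with overlapping groups (log2 0.027, adjusted p = 0.872). The call for Sdhc held in all 21 alternatives. That for Sdhd held in 15 of the 21 and was lost when some single libraries were left out (adjusted p up to 0.0606). The call for Sdhb held in only 9 of the 21. It was lost when any single library other than KO library 4 was left out (adjusted p up to 0.134). It was also lost with DESeq2, with limma on TPM and without the expression filter, so the fall of Sdhb is uncertain.

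In complex III the core proteins Uqcrc1 and Uqcrc2, large subunits that face the matrix, both fell. Uqcrc1 had 329, 352, 337 and 342 CPM in the KO libraries, against 475, 508, 459 and 434 CPM in the WT libraries (log2 -0.47, SE 0.10, adjusted p = 0.00237). Uqcrc2 had 160.2, 157, 153 and 138 CPM in the KO libraries, against 205, 219.6, 218 and 214 CPM in the WT libraries (log2 -0.49, SE 0.10, adjusted p = 0.00111). The libraries of each genotype were close together for both genes and the genotypes did not overlap. Uqcrfs1, the Rieske iron-sulfur protein, did not pass (log2 0.23, adjusted p = 0.113). The 5 small subunits, Uqcrh, Uqcrb, Uqcr11, Uqcr10 and Uqcrq, had log2 values from -0.23 to 0.48 with a median of 0.31, and adjusted p from 0.0531 up. Uqcr11 and Uqcr10 were the most abundant of complex III in WT, at 1179.6 ± 164 TPM in KO and 898 ± 242 TPM in WT for Uqcr11 (log2 0.31, adjusted p = 0.243) and 1261 ± 158 TPM in KO and 869 ± 159 TPM in WT for Uqcr10 (log2 0.45, adjusted p = 0.0531).

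Complex IV subunits that most tissues use numbered 12, of which 2 rose. Cox6c, a small membrane subunit, had 723, 618, 744 and 891 CPM in the KO libraries, against 505, 423, 610.1 and 479.7 CPM in the WT libraries, without overlap (log2 0.56, SE 0.15, adjusted p = 0.00755). Ndufa4, first named as a complex I subunit and now placed in complex IV, had 546, 459, 539.8 and 683 CPM in the KO libraries, against 413, 348, 519.8 and 407 CPM in the WT libraries, and WT library 3 lay within the KO range (log2 0.40, SE 0.15, adjusted p = 0.0473). The call for Ndufa4 was lost in 6 of the 8 fits that left out 1 ladder library, and adjusted p reached 0.12. Cox6a1 and Cox8a, the most abundant of the complex in WT, were at 1454 ± 201 TPM in KO and 1190.4 ± 325 TPM in WT for Cox6a1 (log2 0.21, adjusted p = 0.43) and at 1625 ± 228 TPM in KO and 1085 ± 291 TPM in WT for Cox8a (log2 0.50, adjusted p = 0.0636).

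**Figure D2:**
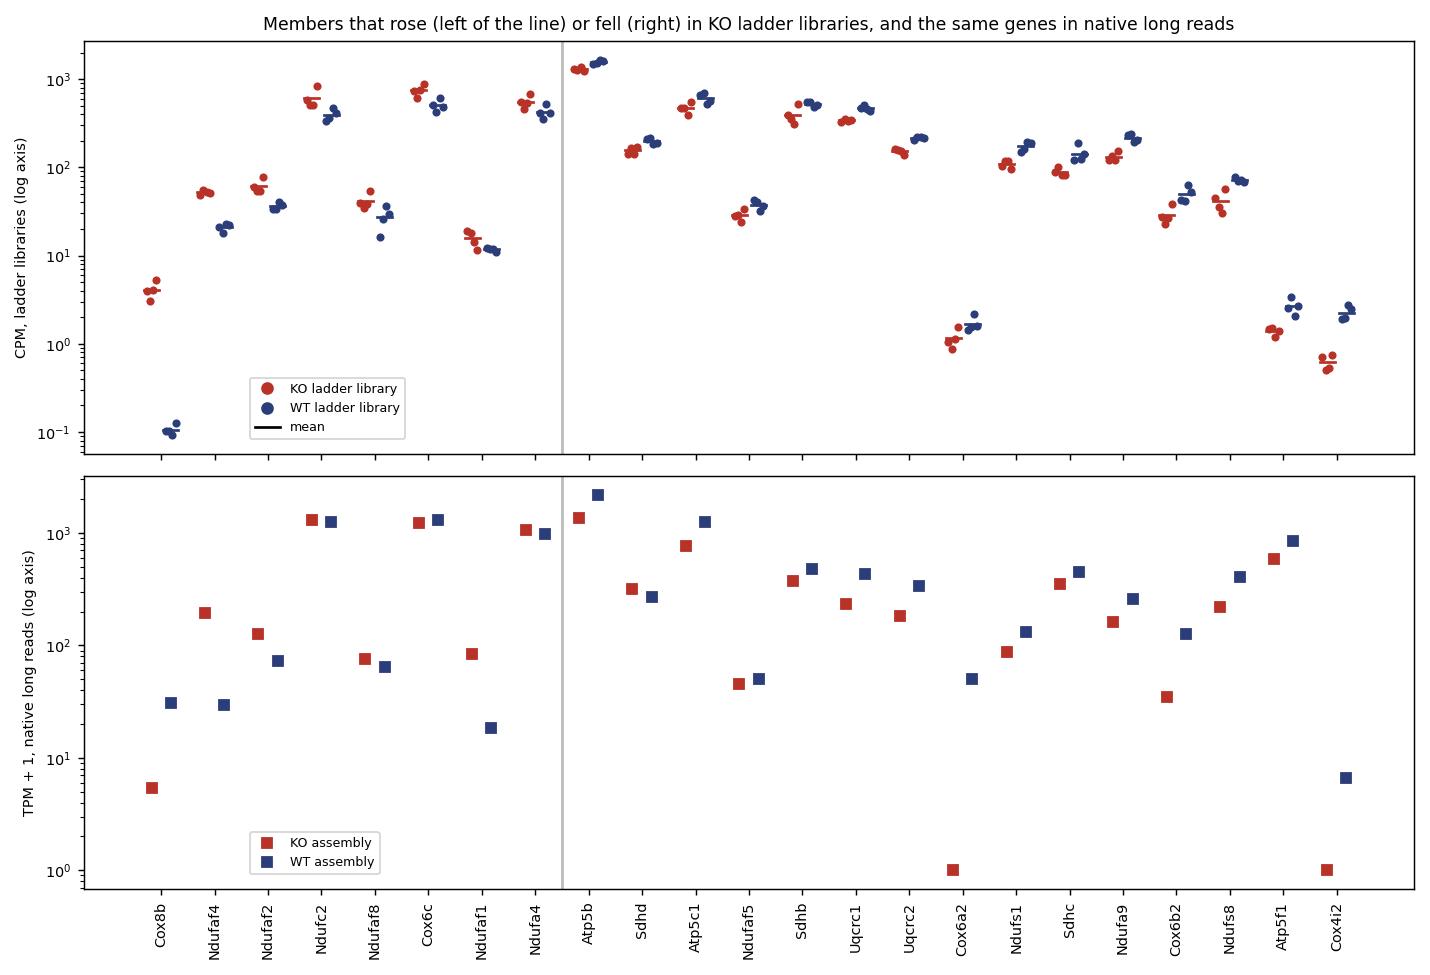
The upper panel gives CPM on a log axis in each KO and WT ladder library for members that passed, rises left of the line and falls right of it, and the lower panel gives native long-read TPM plus 1 for the same genes (1 pooled assembly per genotype). Ndufaf4 stands higher in KO in both panels, Cox8b is higher in KO in the ladder libraries and lower in KO in native reads, and Atp5f1, at 1.2 to 3.4 CPM in ladder libraries, is at 581 TPM in KO and 847 TPM in WT in native reads.

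Complex IV also has subunits with isoforms of other tissues or of low oxygen, 8 in the set, and 6 of them could be tested: 1 rose and 3 fell. Cox8b (chr7:140898945-140900446, minus strand), the heart and muscle isoform of mice, had 3.98, 3.06, 4.09 and 5.25 CPM in the KO libraries, against 0.104, 0.104, 0.0922 and 0.127 CPM in the WT libraries. Every KO library lay far above every WT library (log2 5.25, SE 0.21, adjusted p = 1.11e-08), at a level per length of 14.8 ± 2.25 TPM in KO and 0.365 ± 0.0787 TPM in WT beside the 1625 TPM in KO and 1085 TPM in WT of the common isoform Cox8a. The WT libraries were near the floor, and Cox8b met the expression filter through the KO libraries. Its p is therefore no support for a rise, and the size of its fold change is uncertain. Muscle markers summed to 0.564 to 0.677 CPM in KO and 0.67 to 0.889 CPM in WT. Markers of endothelium and mural cells (3.52 to 3.96 CPM in KO, 1.24 to 1.49 CPM in WT) and of fibroblasts (3.02 to 3.85 CPM in KO, 0.416 to 0.709 CPM in WT) were higher in KO, and their part in the Cox8b result was not tested. Cox4i2, an isoform known for the lung and for low oxygen, had 0.703, 0.509, 0.536 and 0.749 CPM in the KO libraries, against 1.89, 1.96, 2.72 and 2.45 CPM in the WT libraries (log2 -1.85, SE 0.18, adjusted p = 5.44e-06), whereas the common Cox4i1 was at 1118 ± 38.9 TPM in KO and 1038 ± 163 TPM in WT (log2 -0.0028, adjusted p = 0.99). Cox6b2, known from testis, had 27.6, 22.9, 26.6 and 38.6 CPM in the KO libraries, against 42.3, 41.1, 62.4 and 52.7 CPM in the WT libraries (log2 -0.78, SE 0.18, adjusted p = 0.00328). At 62 ± 9.02 TPM in KO and 98.7 ± 18 TPM in WT it stayed far below Cox6b1, at 918 ± 125 TPM in KO and 834 ± 148 TPM in WT (log2 0.059, adjusted p = 0.802). Cox6a2, the heart and muscle isoform, had 1.04, 0.88, 1.12 and 1.55 CPM in the KO libraries, against 1.43, 1.57, 2.16 and 1.61 CPM in the WT libraries, and KO library 4 overlapped the WT range (log2 -0.56, SE 0.19, adjusted p = 0.0276). The call for Cox6a2 was lost without some single libraries (adjusted p up to 0.0875). Cox7a1, also of heart and muscle, was at 8.17 ± 1.43 TPM in KO and 6.97 ± 2.32 TPM in WT and did not pass (log2 0.16, adjusted p = 0.64), and neither did Cox7a2 at 365 ± 50.6 TPM in KO and 369.8 ± 38.1 TPM in WT (log2 -0.092, adjusted p = 0.655) or Cox7a2l, a factor of respiratory supercomplexes, at 326 ± 26 TPM in KO and 329.8 ± 59.9 TPM in WT (log2 -0.084, adjusted p = 0.631). Ndufa4l2, the relative of Ndufa4 induced by low oxygen, had 0.202, 0.117, 0.172 and 0.4 CPM in the KO libraries, against 0.381, 0.406, 0.323 and 0.413 CPM in the WT libraries and missed the threshold (log2 -0.76, adjusted p = 0.0539). It passed without KO library 4. The testis isoforms Cox7b2 and Cox8c were filtered out, at a mean of 0.0752 and 0.0105 CPM in KO and of 0 and 0.00466 CPM in WT.

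In ATP synthase 3 of the 17 genes tested fell. Atp5b, the catalytic beta subunit, had 1299, 1272, 1355 and 1227 CPM in the KO libraries, against 1500.1, 1529.6, 1666 and 1622 CPM in the WT libraries, without overlap (log2 -0.29, SE 0.11, adjusted p = 0.0347). Atp5c1, the gamma subunit that turns within the head, had 468, 467, 393 and 545 CPM in the KO libraries, against 666, 698, 522 and 564 CPM in the WT libraries, and KO library 4 lay within the WT range (log2 -0.39, SE 0.14, adjusted p = 0.0334). Both calls were lost in some of the fits that left out 1 library (adjusted p up to 0.0964 and 0.1). Atp5f1, subunit b of the outer stalk, had 1.48, 1.51, 1.2 and 1.39 CPM in the KO libraries, against 2.53, 3.4, 2.06 and 2.66 CPM in the WT libraries (log2 -0.93, SE 0.16, adjusted p = 0.000483), at 1.57 TPM in KO and 1.89 TPM in WT. The Atp5f1 call was lost with protein-coding transcripts only (adjusted p = 0.244) and with limma on TPM at pseudocounts of 0.5 and 0.1 (adjusted p = 0.382 and 0.4). The other 3 subunits of the head, Atp5a1, Atp5d and Atp5e, had log2 values of -0.064, -0.12 and -0.10 and did not pass. Atp5e was the most abundant gene of complex V in WT, at 1090.3 ± 140.5 TPM in KO and 1090.5 ± 192 TPM in WT. The proton-carrying c ring is made from 3 genes that encode the same mature protein. Atp5g3 was the highest of them at 845 ± 115 TPM in KO and 815 ± 94.7 TPM in WT (log2 -0.015, adjusted p = 0.947), Atp5g1 was at 204 ± 22.7 TPM in KO and 249 ± 41.2 TPM in WT (log2 -0.31, adjusted p = 0.134), and Atp5g2 had 82.2, 89.6, 118 and 259.8 CPM in the KO libraries, against 78.5, 71.7, 109 and 82.2 CPM in the WT libraries (log2 0.69, adjusted p = 0.135). For Atp5g2, KO library 4 was more than 2-fold above the other KO libraries. Processed copies matched to Atp5g2 and Ndufb4 by sequence held 71.1% and 77.5% of the CPM summed over gene and copies in WT, so reads of these genes may be split and their levels are uncertain. Adding the counts of 146 matched copies to their members left 8 rises and 16 falls.

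The fold changes of members ran with transcript length, shorter ones lying higher. Across the 91 members tested, Spearman's rho between the log2 fold change and the effective transcript length was -0.45, and across all 18687 genes tested it was 0.0091. The members share libraries and are not independent. When a trend with length was taken out of every library, 17 members rose and 24 fell. All 8 rises and 16 falls of the first fit were among them. In that fit the median log2 fold change was 0.0038 for members and -0.013 for all genes tested. The shares of all genes called in that fit are not given here, so the counts are not set against them. The part of each library's share of short transcripts in the counts of calls was not tested in another way.

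Summed over each complex, the TPM of KO and WT libraries overlapped in every complex, and the CPM sums did not overlap in complex II. Complex I members summed to 10600.4 ± 1076 TPM in the KO libraries and 9741 ± 1299 TPM in the WT libraries (SD, n = 4 each; log2 0.12), and to 7215 ± 1242 CPM in the KO libraries and 7413 ± 806 CPM in the WT libraries (log2 -0.039). Complex II members summed to 561 ± 38.9 TPM in the KO libraries and 692 ± 102 TPM in the WT libraries (log2 -0.30), and to 996 ± 85.8 CPM in the KO libraries and 1214 ± 21.3 CPM in the WT libraries without overlap. Complex III members summed to 5075 ± 555 TPM in the KO libraries and 4158 ± 692 TPM in the WT libraries (log2 0.29), and to 2871 ± 409.8 CPM in the KO libraries and 2742 ± 338 CPM in the WT libraries (log2 0.066). Complex IV members summed to 10318 ± 1134 TPM in the KO libraries and 8559 ± 1324 TPM in the WT libraries (log2 0.27), and to 6130.1 ± 1191 CPM in the KO libraries and 5527 ± 931 CPM in the WT libraries (log2 0.15). Complex V members summed to 8377 ± 846 TPM in the KO libraries and 8213 ± 1082 TPM in the WT libraries (log2 0.029), and to 6898 ± 923 CPM in the KO libraries and 7528 ± 681 CPM in the WT libraries (log2 -0.13). The direction thus turned between TPM and CPM in complexes I and V. The members together held 3.49 ± 0.36% of all TPM in the KO libraries and 3.14 ± 0.439% in the WT libraries. Short genes dominate TPM sums and long genes weigh more in CPM sums, and no test was run on a sum.

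**Figure D3:**
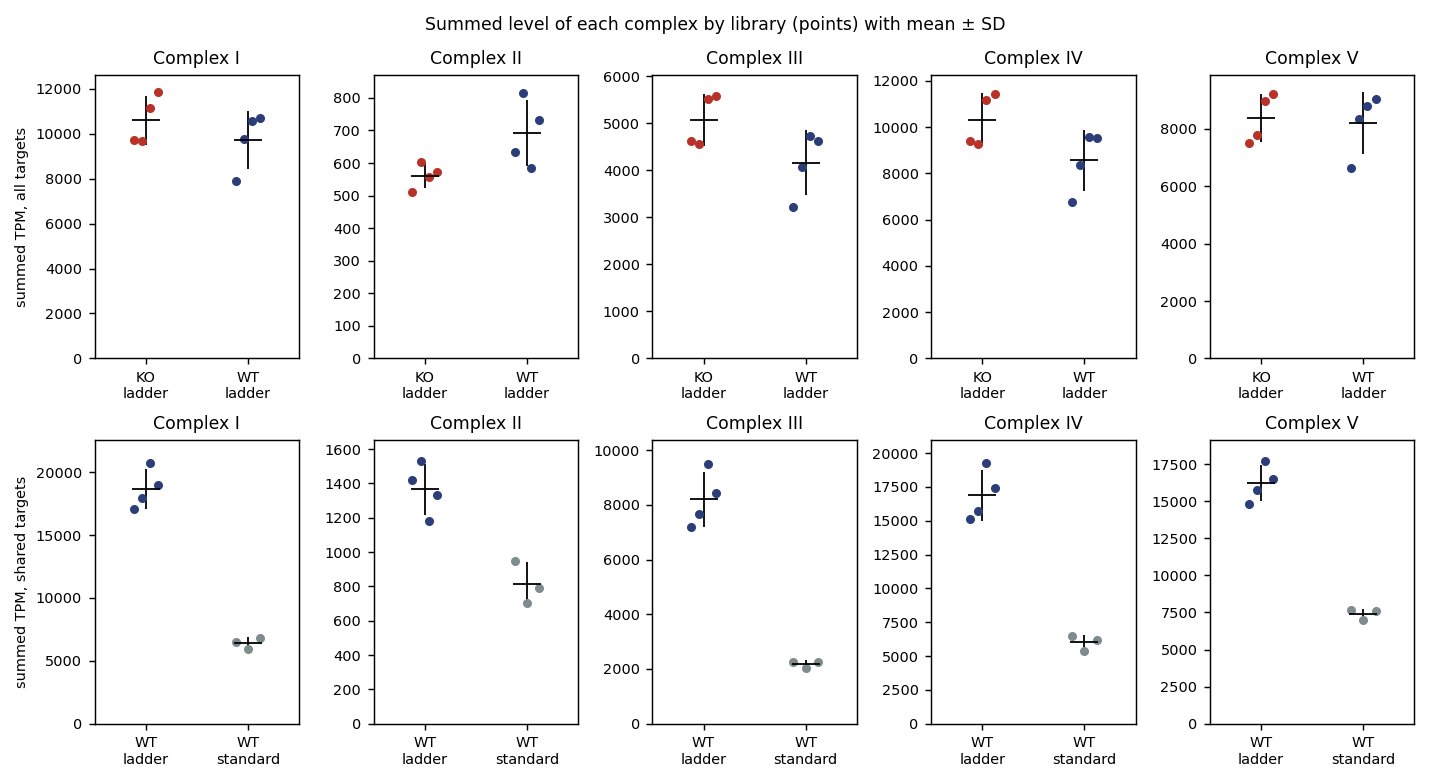
Points are libraries and black lines are mean ± SD of the summed TPM of each complex, for KO and WT ladder libraries over all targets (upper row) and for WT ladder and WT standard libraries over shared targets (lower row). In the upper row the genotypes overlap in every complex, and in the lower row the ladder libraries lie above the standard libraries in every complex.

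Transcript usage was tested for 77 members, and 10 of them (13.0%) passed, against 19.6% of the 10532 genes tested (diffSpliceDGE, Simes p, Benjamini-Hochberg over all genes). The Simes p belongs to the gene and can be set by a minor transcript, so each transcript's own p, adjusted over all transcripts tested, is given beside it. Ndufa9 had the largest shift among these 10. The share of its transcript Ndufa9-201 in the gene's counts was 32.5, 21.7, 21.3 and 20.2% in the KO libraries, against 49.4, 58.4, 48.1 and 52.1% in the WT libraries (gene adjusted p = 3.48e-06, transcript adjusted p = 0.000906). The shares of the groups did not overlap, and in CPM the transcript had 39, 29.1, 25.4 and 30.8 CPM in the KO libraries, against 114, 139, 92.6 and 107 CPM in the WT libraries. Ndufa9-203 had 81.1, 105, 94 and 121 CPM in the KO libraries, against 115, 96.2, 99 and 97.3 CPM in the WT libraries, with overlapping groups, and its share did not pass (transcript adjusted p = 0.0784). The gene's p was set by the minor retained-intron Ndufa9-202, with 0.0767, 0.049, 0.0505 and 0.0163% in the KO libraries, against 0.393, 1.16, 0.393 and 0.567% in the WT libraries (transcript adjusted p = 3.87e-06). Ndufa9-202 was at 0.0247 to 0.0922 CPM in KO and at 0.756 to 2.76 CPM in WT. It passed the expression filter through the WT libraries alone, so its p and the gene's p are no support for a change in usage. Both coding transcripts share exon 1, but exon 2 has 239 bases in Ndufa9-201 and 171 in Ndufa9-203. The last exon, exon 11, has 194 bases in Ndufa9-201 and 469 in Ndufa9-203. Which of these differences bears on the split of reads was not tested. The annotated coding start is in exon 2 for Ndufa9-201 and in exon 1 for Ndufa9-203. Their coding starts are shown for that reason, with the bases that are coding in only 1 of them in capitals and the first 40 shared coding bases in lower case.
Ndufa9-201, own coding bases at chr6:126844962-126844998, minus strand: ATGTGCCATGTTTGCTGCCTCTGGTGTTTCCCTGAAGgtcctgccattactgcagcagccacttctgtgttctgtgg
Ndufa9-203, own coding bases at chr6:126849064-126849112, minus strand: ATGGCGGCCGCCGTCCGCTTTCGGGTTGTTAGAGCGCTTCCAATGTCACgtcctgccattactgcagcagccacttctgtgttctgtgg
Coordinates are of GRCm38. Ndufa9-201 has 37 coding bases of its own and Ndufa9-203 has 49, and either number leaves 1 base when divided by 3, so the shared part is read in the same frame. All 4 FLAIR and all 4 StringTie long-read assemblies held the intron chain of Ndufa9-203 and none held that of Ndufa9-201. In native reads the Ndufa9-203 chain was at 162 TPM in KO and 260.1 TPM in WT.

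**Figure D4:**
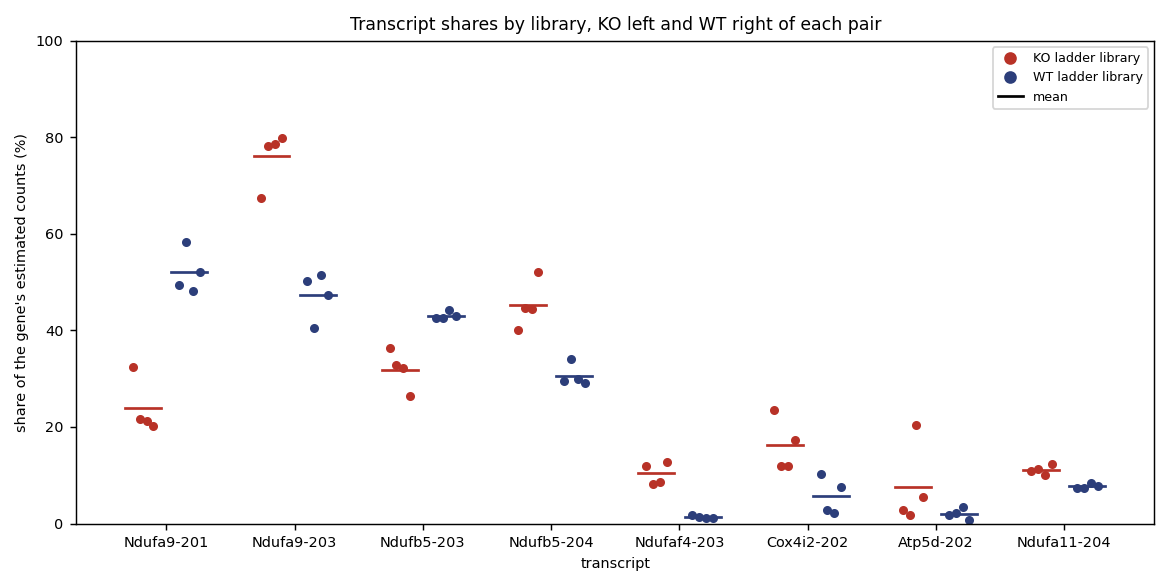
Points are the share of the gene's estimated counts, in percent, that a transcript took in each ladder library, KO left and WT right of each pair, and lines are means of 4 libraries. Ndufa9-201 lies at 20.2 to 32.5% in KO and 48.1 to 58.4% in WT, and Ndufa9-203 shows the reverse order.

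In Ndufb5, an accessory subunit of the membrane arm, the longer transcript Ndufb5-204 took a share of 40.1, 44.6, 44.4 and 52.1% in the KO libraries, against 29.4, 34.1, 30.0 and 29.2% in the WT libraries (gene adjusted p = 0.000925, transcript adjusted p = 0.174). The groups did not overlap, but the transcript that passed was the minor Ndufb5-201, annotated as a target of nonsense-mediated decay, with 1.16, 4.52, 6.04 and 4.56% in the KO libraries, against 0.947, 0.51, 0.677 and 1.89% in the WT libraries (transcript adjusted p = 0.000511). The shorter Ndufb5-203 took 36.3, 32.8, 32.2 and 26.4% in the KO libraries, against 42.5, 42.6, 44.2 and 43.1% in the WT libraries. The chain of Ndufb5-204 was in all 4 assemblies of each tool and that of Ndufb5-203 in none. Ndufaf4-203, a short form of the assembly factor, took 11.9, 8.15, 8.7 and 12.7% in the KO libraries, against 1.87, 1.42, 1.1 and 1.22% in the WT libraries (gene adjusted p = 3.65e-07, transcript adjusted p = 4.09e-07), and its StringTie chain in native reads was at 46.0 TPM in KO and listed at 0 in WT, while all 4 FLAIR assemblies, those of WT included, held the chain. Cox4i2-202 took 23.6, 11.9, 11.9 and 17.3% in the KO libraries, against 10.3, 2.72, 2.1 and 7.52% in the WT libraries (gene adjusted p = 0.0191, transcript adjusted p = 0.0256), at under 0.2 CPM in every ladder library. Atp5d-202 took 2.81, 1.81, 20.4 and 5.54% in the KO libraries, against 1.77, 2.25, 3.35 and 0.714% in the WT libraries (gene adjusted p = 0.0421, transcript adjusted p = 0.0405), a difference that rests mostly on KO library 3. Ndufa11-204 took 10.9, 11.3, 10.1 and 12.3% in the KO libraries, against 7.29, 7.35, 8.47 and 7.87% in the WT libraries, a small shift that did not pass for the transcript (adjusted p = 0.478). In that gene the minor noncoding Ndufa11-203 passed, with 0.857, 1.56, 1.43 and 1.16% in the KO libraries, against 0.132, 0.152, 0.246 and 0.116% in the WT libraries (gene adjusted p = 4.42e-06, transcript adjusted p = 3.87e-06). Ndufab1 is the acyl carrier protein, also used in mitochondrial fatty acid synthesis, and Ndufab1-203 took 6.62, 4.38, 5.39 and 5.09% in the KO libraries, against 2.15, 4.01, 2.22 and 2.6% in the WT libraries (transcript adjusted p = 0.108). The call for Ndufab1 (gene adjusted p = 3.4e-11) came from Ndufab1-210, a retained-intron form with 0.168, 0.291, 0.678 and 0.377 CPM in the KO libraries, against 0, 0, 0 and 0 CPM in the WT libraries (transcript adjusted p = 1.87e-11). Ndufab1-210 passed the expression filter through the KO libraries alone, so its p is no support for a change in usage. None of the long-read assemblies held its chain. Cox7a2-203 took 0.5, 0.903, 0.679 and 0.598% in the KO libraries, against 4.07, 3.42, 1.37 and 1.41% in the WT libraries (gene adjusted p = 0.000881, transcript adjusted p = 0.000941). Atp5a1 and Uqcrq passed through transcripts at under 1 CPM on average in both genotypes. With protein-coding transcripts alone 2 members passed (Ndufa9 and Ndufaf4), and with transcripts of 1 CPM or more 5 passed.

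The pooled long-read assemblies have no replicate error, and their TPM were compared without a test. In native RNA, 2 of 91 members were 2-fold or more higher in KO (Ndufaf1 and Ndufaf4) and 7 were 2-fold or more lower, against 13.3% and 17.6% of 9924 genes. Ndufaf4 was at 195 TPM in KO and 28.7 TPM in WT, Ndufaf1 at 82.1 TPM in KO and 17.6 TPM in WT and Ndufaf2 at 125 TPM in KO and 71.7 TPM in WT. The 7 lower members were 6 complex IV isoforms (Cox4i2, Cox6a2, Cox6b2, Cox7a1, Cox8b and Ndufa4l2) and Atp5g3. Cox4i2, Cox7a1 and Ndufa4l2 were listed at 0 in KO and at 5.68, 9.6 and 6.43 TPM in WT. These genes, Cox6a2 and Cox8b reached the 5 TPM needed for the comparison in WT only. A value below 0 was therefore fixed in advance for them and is no result about isoforms. Cox6b2 was at 33.9 TPM in KO and 126 TPM in WT and Cox6a2, listed at 0 in KO, at 49.8 TPM in WT. Of the members, 79.1% were below 0, against 52.8% of all genes, with medians of -0.37 for members and -0.058 for all genes. In direct cDNA, 6 of 88 members were 2-fold or more higher in KO and 11 were 2-fold or more lower, against 21.2% and 12.2% of 10452 genes, and 60.2% of members and 40.05% of all genes were below 0. The 7 core subunits of complex I were below 0 in both chemistries, as in the ladder libraries.

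Members called in the ladder libraries mostly had the same direction in long reads. In native RNA, 6 of the 8 rises and 15 of the 16 falls did, and in cDNA 6 of 8 and 14 of 16. Of all members compared, 79.1% were below 0 in native RNA and 60.2% in cDNA, so the same direction in falls is weak support. The native counts also include Cox4i2 and Cox6a2 among the falls and Cox8b among the rises, whose native direction was fixed in advance. Cox8b was opposite in native RNA, at 4.35 TPM in KO and 29.8 TPM in WT, while in cDNA it was at 0.487 TPM in KO and 0.27 TPM in WT. Cox6c was at 1231 TPM in KO and 1302 TPM in WT in native RNA, also opposite. Sdhd was opposite in both chemistries, at 317 TPM in KO and 269.7 TPM in WT in native RNA. In cDNA, Ndufc2 at 80.5 TPM in KO and 104 TPM in WT, Ndufa4 at 95.5 TPM in KO and 100.4 TPM in WT and Ndufaf5 at 4.08 TPM in KO and 4 TPM in WT were opposite too. Summed by complex, native levels for complex I were 12796 TPM in KO and 15914 TPM in WT (log2 -0.31), for complex II 1169 TPM in KO and 1405 TPM in WT (log2 -0.26) and for complex III 4929 TPM in KO and 4986 TPM in WT (log2 -0.016). For complex IV they were 12126 TPM in KO and 15229 TPM in WT (log2 -0.33) and for complex V 9362 TPM in KO and 13639 TPM in WT (log2 -0.54). The log2 values of complexes I, III, IV and V were above 0 in the ladder TPM and below 0 in native RNA, and that of complex II was below 0 in both.

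WT ladder libraries were compared with WT standard libraries over 105882 targets that all short-read files share, which asks how parting mRNA by length goes with the level of these genes. Of 90 members tested, 82 were higher in the ladder libraries and 5 were lower, against 30.8% higher and 30.3% lower among 16131 genes. The members' median log2 fold change was 2.27 and that of all genes 0.0046. Library type, read length, pairing of reads and depth differ together between these groups and cannot be told apart. The members took 6.13 ± 0.556% of TPM over shared targets in WT ladder libraries and 2.28 ± 0.155% in standard libraries (SD, n = 4 and 3). Over all targets they took 3.14 ± 0.439% of TPM in the same WT ladder libraries. The size of the gap thus depends on the choice of targets, and the complex sums below use the shared targets too.

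The 5 largest differences towards the ladder libraries were in short genes. Atp5e, the epsilon subunit of the head, had 443, 444, 708 and 525 CPM in the WT ladder libraries, against 38.2, 44.4 and 50.9 CPM in the standard libraries (log2 3.57, SE 0.23, adjusted p = 9.32e-06). Uqcr11, a small subunit of complex III, had 326, 403, 663 and 512 CPM in the WT ladder libraries, against 43, 39.7 and 51.5 CPM in the standard libraries (log2 3.41, SE 0.27, adjusted p = 2.47e-05). Uqcr10, also of complex III, had 364, 374, 590.2 and 450.0 CPM in the WT ladder libraries, against 44.4, 41.9 and 42.3 CPM in the standard libraries (log2 3.37, SE 0.21, adjusted p = 8.41e-06). For these 3 genes every ladder library lay far above every standard library. Ndufa3 and Atp5k, small subunits of complexes I and V, had log2 values of 3.25 and 3.24. The members are short, with a median effective length of 501 bases against 2240.3 for all genes tested, and short genes in general were higher in the ladder libraries. Under 500 bases the median was 2.57 for 44 members and 1.37 for all genes, and from 500 to 1000 bases it was 2.27 for 28 members and 1.31 for all genes. From 1000 to 2000 bases it was 1.08 for 15 members and 0.35 for all genes. From 2000 to 4000 bases it was 0.79 for 3 members and -0.20 for all genes. With the trend of length taken out, 62 members were higher and 11 lower, with a median of 0.82 against -0.038 for all genes. The shares of all genes called in that fit are not given here. Transcripts under 1000 bases held 19.2 to 23.6% of counts in the WT ladder libraries and 12.5 to 12.8% in the standard libraries. The complex sums over shared targets were 18672 ± 1602 TPM in WT ladder libraries and 6424 ± 448 TPM in standard libraries (log2 1.54) for complex I and 1366 ± 149 TPM in WT ladder libraries and 815 ± 126 TPM in standard libraries (log2 0.75) for complex II. Complex III summed to 8195 ± 1018 TPM in WT ladder libraries and 2185 ± 138 TPM in standard libraries (log2 1.91), complex IV to 16879.9 ± 1876 TPM in WT ladder libraries and 6005 ± 573 TPM in standard libraries (log2 1.49) and complex V to 16199 ± 1209.9 TPM in WT ladder libraries and 7411 ± 337 TPM in standard libraries (log2 1.13). Complex II, whose subunits are longer, differed least.

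**Figure D5:**
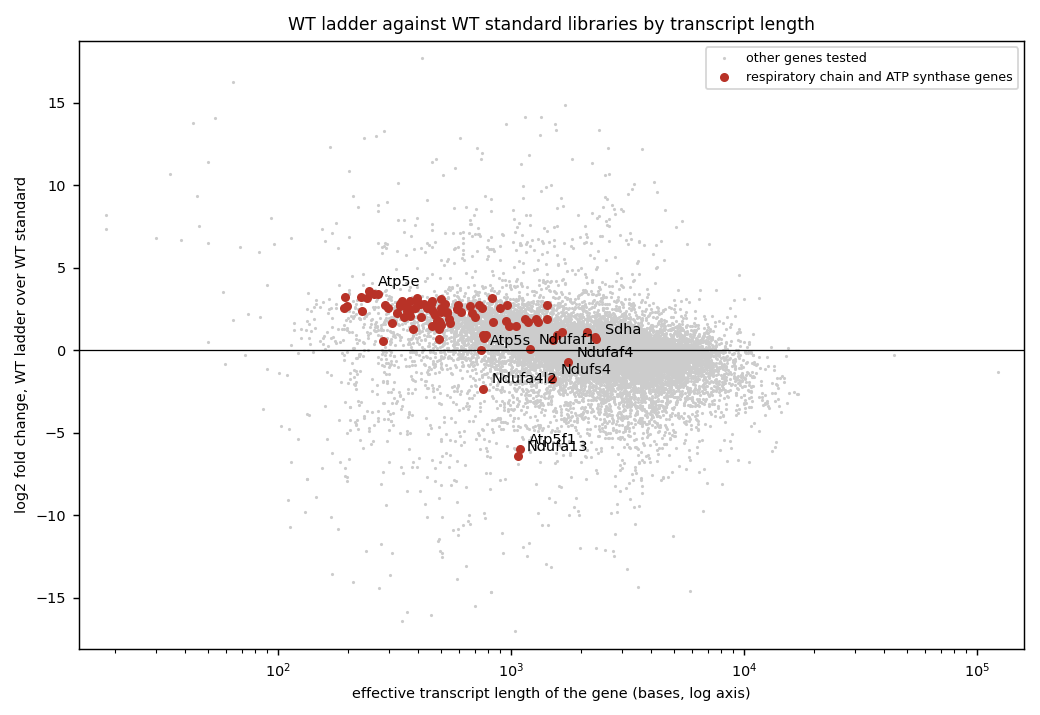
Each point is a gene tested between WT ladder and WT standard libraries, with its effective transcript length in bases on a log axis and its log2 fold change, members drawn over all other genes. Most members lie above the trend of the other genes at their length, and Ndufa13 and Atp5f1 lie near -6.

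Of the 5 members that were lower in the ladder libraries, Ndufa13 and Atp5f1 stood apart. Ndufa13, an accessory subunit of complex I also known as GRIM-19, had 0.327, 0.32, 0.535 and 1.17 CPM in the WT ladder libraries, against 52.6, 45.4 and 55.8 CPM in the standard libraries (log2 -6.44, SE 0.48, adjusted p = 1.79e-05). Atp5f1 had 3.12, 4.26, 2.65 and 3.25 CPM in the WT ladder libraries, against 253, 197 and 193 CPM in the standard libraries (log2 -6.01, SE 0.21, adjusted p = 1.07e-06). In native RNA these genes were at 516 TPM in KO and 701 TPM in WT for Ndufa13 and 581 TPM in KO and 847 TPM in WT for Atp5f1. The fall of Atp5f1 between genotypes rests on 1.2 to 3.4 CPM. Whether ladder reads of these 2 genes were assigned to targets without an annotated gene, which held 12.9 to 13.4% of counts in WT ladder libraries and 0.548 to 0.583% in standard libraries, was not tested. Ndufaf4 had 25.9, 22.5, 29.4 and 27.1 CPM in the WT ladder libraries, against 51.5, 38.4 and 39.8 CPM in the standard libraries (log2 -0.72, SE 0.15, adjusted p = 0.00368). Ndufa4l2 had 0.469, 0.509, 0.416 and 0.505 CPM in the WT ladder libraries, against 0.079, 3.76 and 3.29 CPM in the standard libraries, with standard library 1 far below the other standard libraries (log2 -2.33, SE 0.77, adjusted p = 0.0294). Ndufs4 had 5.55, 4.59, 4.95 and 5.34 CPM in the WT ladder libraries, against 6.88, 38.7 and 6.7 CPM in the standard libraries (log2 -1.77, SE 0.59, adjusted p = 0.0308), and over all annotated targets its log2 value was 2.18. Its WT ladder level over all targets averaged 156 CPM, against 5.11 CPM over the shared targets, and standard library 2 lists 393 member transcripts where the other short-read files list 423. The calls for Ndufs4 and Ndufa4l2 were lost when some single libraries were left out (adjusted p up to 0.129 and 0.108).

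Other genes of the pathway, from lists outside the membership rule, were counted in the KO and WT ladder libraries, where 26.4% of all genes tested rose and 27.2% fell. Of 40 assembly factors of the complexes other than Ndufaf genes, 14 rose (35%) and 3 fell (7.5%), with a median of 0.19. Uqcc3, an assembly factor of complex III, averaged 126 ± 23.7 CPM in KO and 57.5 ± 11.9 CPM in WT (log2 1.13, adjusted p = 0.000178), and Coa7, of complex IV, 26.6 ± 4.96 CPM in KO and 13.1 ± 0.658 CPM in WT (log2 1.02, adjusted p = 4.52e-05). Lyrm7, which helps to insert the Rieske protein, averaged 3.31 ± 0.126 CPM in KO and 5.16 ± 0.435 CPM in WT (log2 -0.64, adjusted p = 0.000364). Of the 13 protein-coding genes of the mitochondrial genome, 6 fell, with a median of -0.33, and mt-Nd5, a core subunit of complex I, averaged 15.7 ± 0.608 CPM in KO and 40.5 ± 4.79 CPM in WT (log2 -1.36, adjusted p = 1.08e-06). Among 20 regulators of mitochondrial biogenesis 4 rose (20%) and 3 fell (15%), below the shares of all genes. Pprc1, a coactivator of the pathway, averaged 30.6 ± 1.91 CPM in KO and 21.5 ± 2.43 CPM in WT (log2 0.51, adjusted p = 0.0019), and Gabpb1, a subunit of GABP, 11.6 ± 0.898 CPM in KO and 18 ± 0.812 CPM in WT (log2 -0.64, adjusted p = 0.000158). Of 12 genes for cytochrome c and carriers 3 fell (25%), near the share of all genes. Of 10 genes linked to low oxygen in mitochondria, among them Cox4i2 and Ndufa4l2, 2 rose and 5 fell, with a median of -0.83. Bnip3, a mitophagy receptor, averaged 22.2 ± 1.03 CPM in KO and 165 ± 6.36 CPM in WT (log2 -2.89, adjusted p = 2.94e-09), and Pdk1, which restrains pyruvate dehydrogenase, 37.7 ± 2.54 CPM in KO and 113 ± 14.6 CPM in WT (log2 -1.58, adjusted p = 7.18e-07). In native long reads Lyrm7 (6.09 TPM in KO, 4.56 TPM in WT) and Gabpb1 (24.3 TPM in KO, 20.6 TPM in WT) had the opposite direction. Pdk1 differed little there, at 16.9 TPM in KO and 18.7 TPM in WT. Uqcc3, Coa7, Pprc1 and Bnip3 had the same direction as in the ladder libraries.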

How the data were processed

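Groups came from the sample labels. The authors quantified transcripts with kallisto (release not given in the sources used here), per the file headers and the submitters' processing notes, and deposited estimated counts and TPM per target. The TPM were scaled by the authors to each file's own targets. The step that joined the bands is likewise not stated there. The notes also list STAR 2.5.4b, StringTie and minimap2 2.17 and the build GRCm38 (mm10). Long-read assemblies were deposited by the authors with TPM from StringTie 2.0, per the file headers, or as structures alone from FLAIR.

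Estimated counts were summed per GENCODE M21 gene and rounded. Targets without an annotated gene held 11.9 to 13.0% of counts in KO ladder, 12.9 to 13.4% in WT ladder and 0.548 to 0.583% in standard libraries, and were kept in totals. Tests were edgeR 4.0.16 quasi-likelihood fits in R 4.3.3 (filterByExpr, TMM, robust dispersion), with Benjamini-Hochberg adjustment over all genes and a threshold of 0.05. SE is the log2 fold change over the root of F. Usage was tested with diffSpliceDGE, and the fits were tested on simulated data. Alternatives were other scalings, DESeq2 1.42.0, limma 3.58.1 on log2 TPM with pseudocounts of 0.5 and 0.1, filters, a length offset, added copies (blastn, at least 85% identity over at least 50% of the copy), a replicate block and leaving out each library. Long-read TPM were summed over StringTie transcripts that hold an intron of the gene and compared as log2 with pseudocounts of 1 (native, from 5 TPM in either genotype) and 0.1 (cDNA, from 0.5 TPM). A chain is the ordered set of intron ends, matched exactly. Named members were up to 10 rises and 10 falls with average log2 CPM from 1, the 2 of highest TPM in each complex, isoform families, and the 5 largest differences each way between library types. Others are named for their role. The values of 1 member, which stays in counts and sums, are not reported here. Members and lists were chosen with earlier results of these data known. At these depths, precision is limited by the spread between libraries.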

Additional observations from a re-analysis of the deposited data

Results flagged for a closer look

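Within groups of 4 libraries, 116 sets of values of named members were searched for a library far from the rest, by Dixon's critical value for the gap to the nearest library. Chance gives about 1 in 20, and 3 were found. Ndufs4, an accessory subunit of complex I, had 177 CPM in KO library 4, against 117 to 119 CPM in the other KO libraries. Ndufa9-203 took 67.5% of its gene in KO library 1, against 78.3 to 79.8% in the other KO libraries. Ndufb5-204 took 34.1% of its gene in WT library 2, against 29.2 to 30.0% in the other WT libraries.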

How the results depend on the processing

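Of the 8 rises, 5 (Cox6c, Cox8b, Ndufaf2, Ndufaf4, Ndufc2), and among the 16 falls Cox4i2, Cox6b2, Ndufa9, Ndufs1, Ndufs8, Sdhc, Uqcrc1 and Uqcrc2, passed in all 21 alternatives. Cox8b met the expression filter through the KO libraries, so its passing is no support for a rise. The rises numbered 5 with upper-quartile scaling, 13 with DESeq2, 14 and 16 with limma at pseudocounts of 0.5 and 0.1, 5 with protein-coding transcripts only, 17 with a length offset and 19 with the offset and a replicate block. Leaving out 1 library gave 5 to 11 rises and 10 to 26 falls. The falls numbered 10 with limma at 0.1, and 26 without KO library 4 and WT library 1 together, a choice made after seeing the data, as were the added copies and the offset with block. Between WT ladder and standard libraries, members lower in ladder numbered 11 with the length offset and 3 to 6 with 1 library left out. With the length offset the direction reversed for Atp5g1 (log2 -0.28), Ndufaf1 (-0.69), Ndufc2 (-0.12), Ndufab1 (-0.027), Sdhc (-0.40), Ndufs8 (-0.33) and Ndufaf2 (-0.038), and over all annotated targets for Ndufs4 (2.18). Usage calls numbered 5 with transcripts of 1 CPM or more, 2 with protein-coding transcripts only, and 7 to 10 with 1 library left out. The complex III sum differed by log2 0.066 in CPM. The shares of all genes called in these alternatives are not given here, and the cause of these moves was not tested.

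Libraries with the same replicate number did not deviate together (correlations of 0.0074 to 0.039 between KO and WT), and those with other numbers had -0.34 to 0.44. These correlations cannot show whether same-numbered libraries shared a culture or a day, and the main fits did not pair them. A replicate block gave 12 rises, 18 falls, 10 usage calls and 3 members lower in ladder libraries.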

Other observations

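Genes that feed or build the respiratory chain were counted in the same fit of KO and WT ladder libraries. Of 78 genes of the mitochondrial ribosome, which translates the subunits of the mitochondrial genome, 24 rose and 8 fell, with a median log2 fold change of 0.19, against 26.4% rising and 27.2% falling among all genes tested. Mrpl43 averaged 282 ± 60.4 CPM in KO and 93.8 ± 2.54 CPM in WT (log2 1.59, adjusted p = 3.34e-06), and Mrps2 averaged 72.9 ± 4.53 CPM in KO and 25.7 ± 1.71 CPM in WT (log2 1.50, adjusted p = 3.16e-07). In native long reads Mrpl43 was at 301.4 TPM in KO and 75.7 TPM in WT, and Mrps2 at 112 TPM in KO and 37.1 TPM in WT. Mrpl39 averaged 37.8 ± 6.13 CPM in KO and 59.8 ± 6.77 CPM in WT (log2 -0.66, adjusted p = 0.00146). Of 22 genes of the citric acid cycle and pyruvate entry, 6 rose and 3 fell, with a median of -0.060. Idh2, the NADP-linked isocitrate dehydrogenase of mitochondria, averaged 255 ± 11.2 CPM in KO and 149.6 ± 7.82 CPM in WT (log2 0.77, adjusted p = 4.41e-05), and Suclg2, a subunit of succinyl-CoA ligase, averaged 123 ± 12.3 CPM in KO and 69.1 ± 10.3 CPM in WT (log2 0.83, adjusted p = 0.000212). Pdha1, the catalytic subunit of pyruvate dehydrogenase, averaged 238 ± 25.5 CPM in KO and 303 ± 27.1 CPM in WT (log2 -0.35, adjusted p = 0.0265).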
